A study of Mus musculus with 12 samples.

Results

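The glutathione S-transferase (GST) genes followed here are *Gsta2*, *Gsta3*, *Gsta4*, *Gstm1*, *Gstm2*, *Gstm5*, *Gstp1*, *Gsto1*, *Mgst1* and *Gstt1*, which are 10 of the 55450 genes counted. They were chosen by their symbols with earlier results of the same libraries known, so their levels and fold changes in every group are a description and carry no test. A further 19 GST genes were found in the count table. They and the gene lists below were also chosen with earlier results known, so their adjusted p-values are not independent support. The data are RNA-seq of alveolar type II (AT2) cells, the surfactant-making epithelium of the lung, from C57BL/6 mice. One genotype was *AhR f/f*, which carries loxP sites around part of the aryl hydrocarbon receptor gene on both alleles, has no Cre and is called WT as in the labels. The other was *Sftpc-Cre;AhR f/f*, in which Cre made under the surfactant protein C promoter deletes the floxed part, and it is called AhR KO below (AhR or KO in the labels). Cells of both genotypes were selected by removing cells stained for CD16/32, CD45, Ter119 or Sca-1, and were kept on Collagen I with either PBS or cockroach extract (CRE, 50 µg/ml) for 24 h. Each of the 4 groups had 3 libraries. The labels do not say whether a library came from 1 mouse or from several, so the spread between libraries may be partly technical.

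GSTs join the thiol of glutathione to reactive electrophiles, among them products of lipid peroxidation and inhaled toxicants, so that they can be exported and degraded. The cytosolic enzymes fall into classes named by Greek letters (alpha, mu, pi, omega and theta), while *Mgst1* encodes an enzyme of the endoplasmic reticulum and outer mitochondrial membrane. Many GST genes answer to the transcription factor NRF2 at antioxidant response elements (ARE), and some also to ligand-bound AhR at xenobiotic response elements (XRE).

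Promoters of 4 members are shown: *Gsta3* and *Gsta2* because alpha class genes were higher with CRE, *Gstp1* because it was lower in AhR KO cells, and *Mgst1* as a second window that holds an ARE core. Each is the 250 bases before the gene's start, 5′ to 3′ in the direction of the gene, from RefSeq (GRCm38.p6). Capitals mark a match on either strand to the ARE core TGACNNNGC or to the XRE core GCGTG. The windows are chr1:21240335-21240584 (plus strand) for *Gsta3*, chr6:138140277-138140526 (plus strand) for the upstream one of 2 *Mgst1* starts, chr9:78347146-78347395 (minus strand) for *Gsta2* and chr19:4037913-4038162 (minus strand) for *Gstp1*.
Gsta3: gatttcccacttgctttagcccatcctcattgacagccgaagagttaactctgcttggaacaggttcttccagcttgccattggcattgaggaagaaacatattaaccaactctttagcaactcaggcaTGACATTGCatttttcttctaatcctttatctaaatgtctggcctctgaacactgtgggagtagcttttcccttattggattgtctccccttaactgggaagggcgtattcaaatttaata
Mgst1: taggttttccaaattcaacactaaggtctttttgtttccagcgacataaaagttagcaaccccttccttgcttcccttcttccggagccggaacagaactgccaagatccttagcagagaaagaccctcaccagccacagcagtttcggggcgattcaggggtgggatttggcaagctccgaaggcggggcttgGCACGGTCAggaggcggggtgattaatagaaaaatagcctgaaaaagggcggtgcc
Gsta2: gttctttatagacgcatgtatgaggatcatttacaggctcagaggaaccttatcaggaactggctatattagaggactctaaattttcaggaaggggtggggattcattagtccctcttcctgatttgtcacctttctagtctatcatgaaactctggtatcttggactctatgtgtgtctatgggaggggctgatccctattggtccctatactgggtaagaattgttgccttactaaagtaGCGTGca
Gstp1: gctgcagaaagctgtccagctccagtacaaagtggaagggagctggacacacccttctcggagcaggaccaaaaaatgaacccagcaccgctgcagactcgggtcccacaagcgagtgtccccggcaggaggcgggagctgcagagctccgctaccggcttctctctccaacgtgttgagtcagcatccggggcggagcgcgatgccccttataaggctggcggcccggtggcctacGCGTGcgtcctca

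The ARE core stood once in the *Gsta3* window and once, on the minus strand, in the *Mgst1* window. The XRE core stood once in the *Gsta2* window and once in the *Gstp1* window, in both cases just before the start. Counted over the full 300-base entries, *Gstm5* held 1 ARE core and 2 XRE cores and each of the 2 *Gstm1* entries held 1 XRE core. Neither motif was found in the entries of *Gstm2*, *Gsto1* and *Gstt1* or in the second one of *Mgst1*. Among 32851 such promoters 12.4% held the ARE core and 32.4% the XRE core, so a match is a description of letters and not a binding site. *Gsta4* is not in the promoter table.

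The members lie in clusters with other GST genes (positions in GRCm38). *Gsta4* (chr9:78182774-78209349) and *Gsta2* (chr9:78331018-78355788) flank *Gsta1*, *Gm3776* and *Gm10639*. *Gstm5* (chr3:107895821-107898686), *Gstm2* (chr3:107981702-107986453) and *Gstm1* (chr3:108012255-108017973) share a stretch with *Gstm7*, *Gstm6*, *Gstm3* and *Gstm4*. *Gstp1* (chr19:4035407-4037985) lies beside *Gstp2* and *Gstp3*, and *Gsto1* (chr19:47854970-47864790) beside *Gsto2*. *Gstt1* (chr10:75783813-75798584) lies beside *Gstt3*, *Gstt4* and *Gstt2*, *Mgst1* is at chr6:138140316-138156755 and *Gsta3* at chr1:21240589-21265661. Near-identical copies limit what the counts of some members can say. Of all 31-base stretches in its transcripts, *Gsta2* shared 60.7% with other genes (44.7% with *Gsta1*), *Gstp1* 38.5% (all of it with *Gstp2*), *Gstm1* 28.8%, *Gstm2* 12.2% and *Gsta3* 2.68%. *Gsta4*, *Gstm5*, *Gsto1* and *Mgst1* shared none. Reads of a shared stretch may have been divided between copies, so the values of *Gsta2*, *Gstp1* and *Gstm1* are less certain than that of *Gsta4*. *Gsta3*, *Gsto1* and *Gstm5* overlap genes on the opposite strand, and whether the counting used strand is not given in the sources used here.

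Libraries held 68878065 to 80935797 counts, and all 10 members were among the 20612 genes that passed the low-count filter. The count of *Ahr* covers the whole gene and did not separate the genotypes, at 37.7 to 51.4 CPM (counts scaled to a common library size) in AhR KO libraries against 42.9 to 56.2 in WT libraries, so it gives no check of the deletion. *Cyp1b1*, a direct AhR target, lay at 31.7 to 63.9 CPM against 344 to 465. The surfactant gene *Sftpc* averaged 4619 to 5902 CPM by group. The club cell gene *Scgb1a1* averaged 4675 to 5939 CPM, while *Scgb3a2* (2.63 to 2.96) and *Cyp2f2* (13.2 to 14.8) were low. The summed CPM of 12 AT2 markers was 7267 to 9225 in WT libraries and spread wider, 4948 to 9787, in AhR KO libraries. In such bulk samples fewer cells of a type and less RNA per cell cannot be told apart.

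On the length-scaled FPKM of the authors, *Gstp1*, *Gsta4*, *Gsto1*, *Gstm1* and *Mgst1* were the abundant members and *Gstm5* and *Gstt1* the scarce ones. In WT cells with PBS the order ran from *Gstp1* at 254 ± 27.4 FPKM (SD, n = 3) and *Gsta4* at 226 ± 16.7, through *Gsto1* at 144 ± 41.5, *Gstm1* at 133 ± 11.9 and *Mgst1* at 130 ± 11.7, to *Gsta2* at 35.8 ± 3.67, *Gstm2* at 20.2 ± 1.98, *Gsta3* at 17.6 ± 2.25, *Gstt1* at 6.89 ± 0.757 and *Gstm5* at 6.82 ± 0.0947. The libraries of *Gstp1* and *Gsta4* overlapped, as did those of *Gsto1*, *Gstm1* and *Mgst1*, those of *Gstm2* and *Gsta3*, and those of *Gstt1* and *Gstm5*. With CRE *Gsta4*, the alpha class enzyme best known for clearing 4-hydroxynonenal, stood first among the members at 395 ± 10.6 FPKM, and its libraries no longer overlapped those of *Gstp1* at 282 ± 31.7. *Gsta3* at 33.7 ± 2.33 FPKM then stood above *Gstm2* at 19.4 ± 1.19. In AhR KO cells *Gsta4* and *Gstp1* again overlapped with PBS (154 ± 8.93 and 147 ± 7.86 FPKM), whereas with CRE *Gsta4* (299.7 ± 26.4) stood apart from *Gstp1* (183 ± 24.0). The FPKM of all 10 members added up to 873 to 1086 in WT libraries with PBS, 1246 to 1395 with CRE, 656 to 726 in AhR KO libraries with PBS and 1003 to 1032 with CRE. The sum was higher with CRE in each genotype without overlap, and lower in AhR KO cells under each treatment without overlap, while the range of AhR KO cells with CRE fell inside that of WT cells with PBS. *Gsta4* alone made up 21.2% to 25.0% of that sum in the 6 PBS libraries and 27.6% to 32.0% in the 6 CRE libraries. Outside the members, *Gsta1* and *Gm3776* had a higher mean FPKM than any member in all 4 groups. In WT cells they were at 305 ± 57.6 and 270 ± 40.1 with PBS and at 618 ± 86.3 and 506 ± 82.3 with CRE. The AhR KO means were 229 and 202 with PBS and 471 and 400 with CRE.

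**Figure D1:**
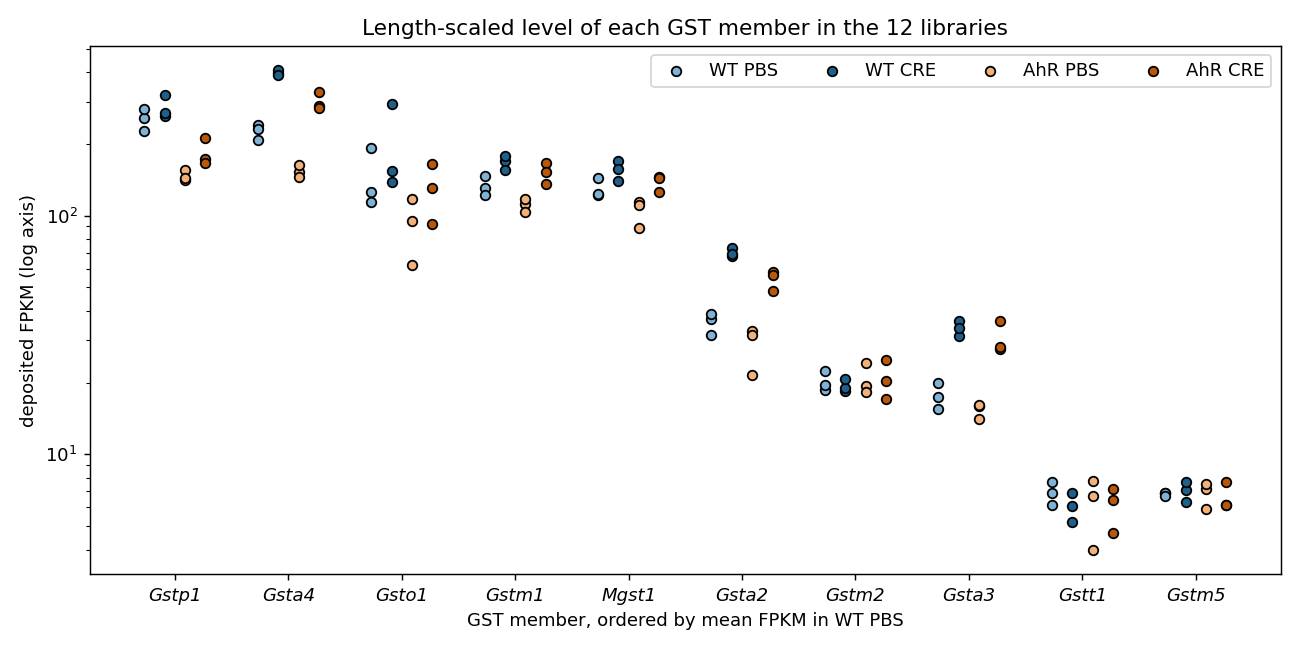
Deposited FPKM (log axis) of each GST member in the 12 libraries, with members ordered along the x axis by their mean in AhR f/f cells with PBS. Each point is 1 library, and WT stands for AhR f/f and AhR for Sftpc-Cre;AhR f/f. Among the members, Gstp1 (254) and Gsta4 (226) lead with PBS in AhR f/f cells, and Gstt1 (6.89) and Gstm5 (6.82) are lowest.

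CRE was compared with PBS in each genotype to ask how the GST genes answer to the allergen with AhR present and with AhR deleted. The 3 alpha class members were higher with CRE in both genotypes, close to 2-fold, with no overlap between the libraries. Smaller differences were seen for *Gstm1*, *Mgst1* and *Gstp1*, and *Gstm2*, *Gstm5* and *Gstt1* lay near 0. All values below are CPM scaled by the trimmed mean of M values (TMM), with the libraries in the order of their replicate number.

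*Gsta4* was at 333, 331 and 297 CPM with PBS and 545, 583 and 555 with CRE in WT cells. In AhR KO cells it was at 207, 226 and 206 with PBS and 392, 467 and 411 with CRE. Every CRE library thus lay above all 6 PBS libraries, and the log2 fold change was 0.81 ± 0.08 (SE) in WT and 0.99 ± 0.08 in AhR KO cells. *Gsta3*, whose mouse enzyme is known for detoxifying aflatoxin epoxide, was at 82.7, 98.7 and 76.1 CPM with PBS and 149, 178 and 166 with CRE in WT cells. The AhR KO libraries had 74.5, 76.3 and 68.5 with PBS and 130, 175 and 140 with CRE. Its libraries separated by treatment across both genotypes as well, with log2 fold changes of 0.94 ± 0.13 and 1.02 ± 0.13. *Gsta2*, an alpha class gene long used as a reporter of ARE activity, was at 47.6, 52.1 and 42.3 CPM with PBS and 87.1, 97.3 and 92.7 with CRE in WT cells. The KO values were 41.7, 27.8 and 41.7 with PBS and 74.0, 63.8 and 76.3 with CRE. The groups were again apart, the 27.8 being the lowest of the 12 libraries, and the log2 fold changes were 0.96 ± 0.15 and 0.95 ± 0.15.

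*Gstm1*, the most abundant mu class member, was at 211, 244 and 204 CPM with PBS and 273, 295 and 259 with CRE in WT cells. In the KO libraries it was at 178, 167 and 193 with PBS and 265, 223 and 258 with CRE. The groups did not overlap in either genotype, and the log2 fold changes were 0.33 ± 0.10 and 0.47 ± 0.10. *Mgst1* averaged 293 ± 30.7 CPM (SD, n = 3) with PBS and 350 ± 40.1 with CRE in WT cells, which overlapped, and 231 ± 33.9 and 311 ± 32.2 in AhR KO cells, which did not. Its log2 fold changes were 0.26 ± 0.13 and 0.43 ± 0.13. *Gstp1*, the single member of the pi class here, differed by 0.15 ± 0.12 in WT cells with overlap and by 0.34 ± 0.12 in AhR KO cells without it. *Gsto1*, an omega class enzyme with thiol transferase activity, was the most uneven member, at 278, 440 and 261 CPM with PBS and 339, 315 and 673 with CRE in WT cells. AhR KO cells had 206, 259 and 141 with PBS and 287, 208 and 381 with CRE. Library 2 was highest with PBS and library 3 with CRE in both genotypes, the groups overlapped, and the differences of 0.44 ± 0.35 and 0.53 ± 0.35 were within that spread. *Gstm2*, *Gstm5* and *Gstt1* had log2 fold changes between -0.18 and 0.04.

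**Figure D2:**
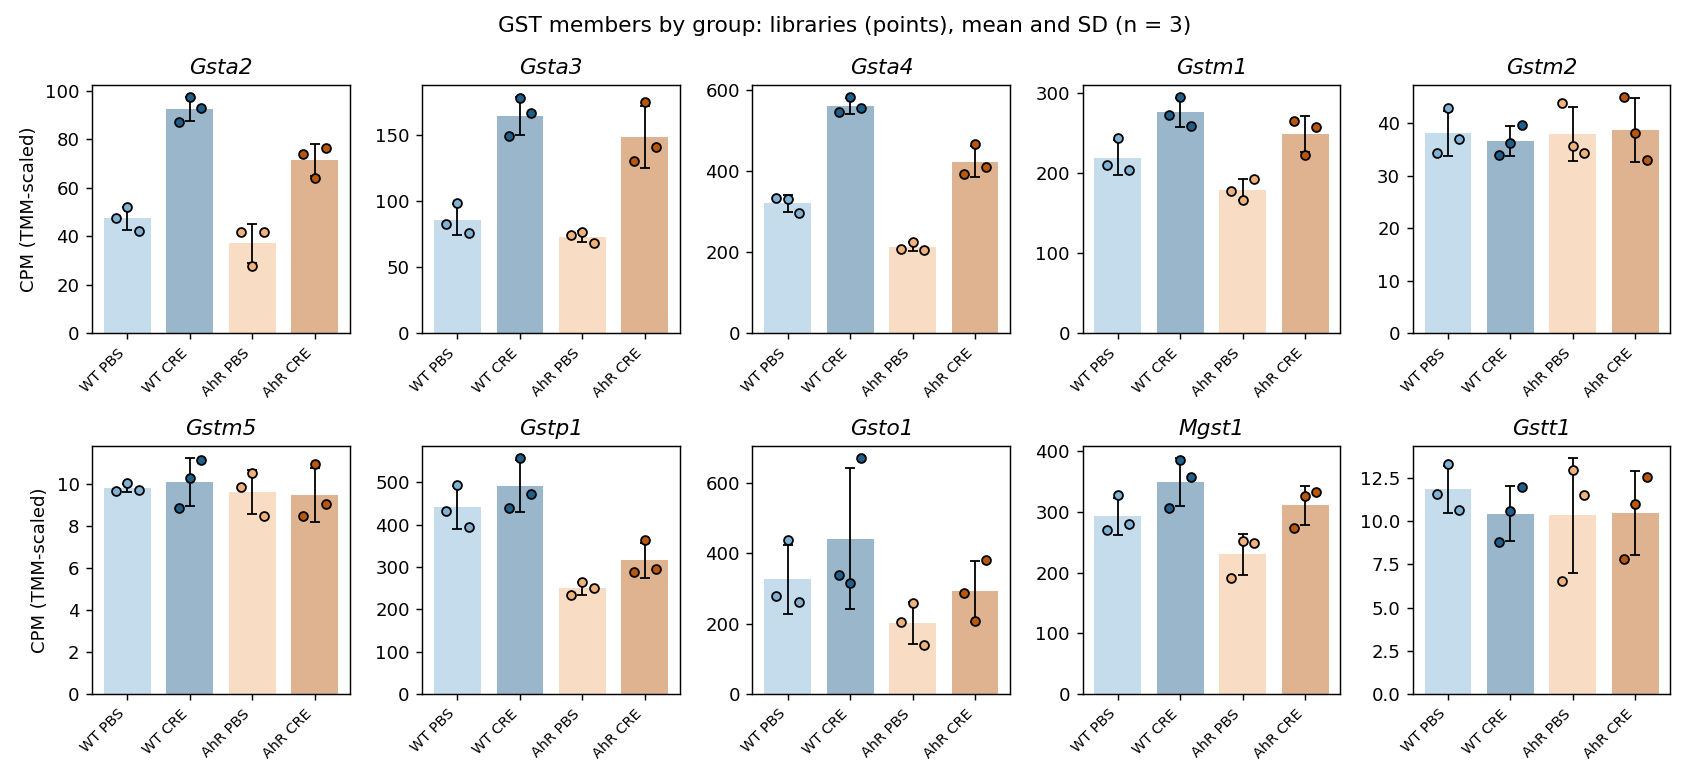
TMM-scaled CPM (y axis, from 0) of the 10 GST members in the 4 groups. Points are libraries in the order of replicate number, bars the mean and lines 1 SD (n = 3), with WT for AhR f/f and AhR for Sftpc-Cre;AhR f/f. Gsta2, Gsta3 and Gsta4 separate CRE from PBS in both genotypes, Gstp1 separates the genotypes under both treatments (395 CPM or more against 364 or less), and Gsto1 has the widest spread.

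With edgeR's quasi-likelihood test 3 of 10 members, *Gsta2*, *Gsta3* and *Gsta4*, passed an adjusted p of 0.05 in WT cells, where 0.233% of all genes tested did. The same 3 passed in AhR KO cells, beside 0.262% of all genes. Under the looser rule of the study's methods (limma-trend, a size of over 0.5 in log2 fold change with an unadjusted p under 0.05) these 3 passed in each genotype, beside 4.11% and 3.38% of all genes. The libraries of 4 members did not overlap in WT cells (all higher with CRE) and those of 6 in AhR KO cells, beside 16.5% and 11.8% of all genes. Since the choice of members drew on these same comparisons, nothing is read from these counts. The replicate numbers paired CRE and PBS libraries, and with pairing within genotype 5 members passed in WT cells (the 3 alpha genes, *Gstm1* and *Mgst1*; 3.63% of all genes) and 6 in AhR KO cells (these and *Gstp1*; 2.13% of all genes). *Gsta4* passed without any 1 of the 6 libraries compared in either genotype. *Gsta2* was lost without any 1 library in WT cells, and *Gsta3* as well, leaving a count of 1, without PBS library 1, PBS library 3, CRE library 2 or CRE library 3. *Gsta3* was also lost in WT cells when only the 6 libraries compared were fitted. In AhR KO cells *Gsta2* was lost without any 1 library but PBS library 2, and the count was 1 (*Gsta4*) when only the 6 libraries compared were fitted.

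Averaged over both genotypes, 4 members passed in edgeR (*Gsta2*, *Gsta3*, *Gsta4* and *Gstm1*), beside 1.1% of all genes. The log2 fold changes were 0.96 ± 0.11, 0.98 ± 0.09, 0.90 ± 0.06 and 0.40 ± 0.07. With pairing within genotype 6 passed (adding *Gstp1* and *Mgst1*), beside 6.59% of all genes, and the same 6 passed with the replicate number as a single block, beside 2.57%. *Gstm1* was lost without WT PBS library 3 or CRE library 2, or without AhR KO PBS library 2 or CRE library 3, and the alpha genes passed without any 1 library. The 6 CRE libraries lay above all 6 PBS libraries for the 3 alpha genes, beside 1.5% of all genes with no overlap. The median log2 fold change was 0.37 over the 10 members and -0.002 over all genes tested. Here too the choice of members drew on the same libraries, so nothing is read from these counts.

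**Figure D3:**
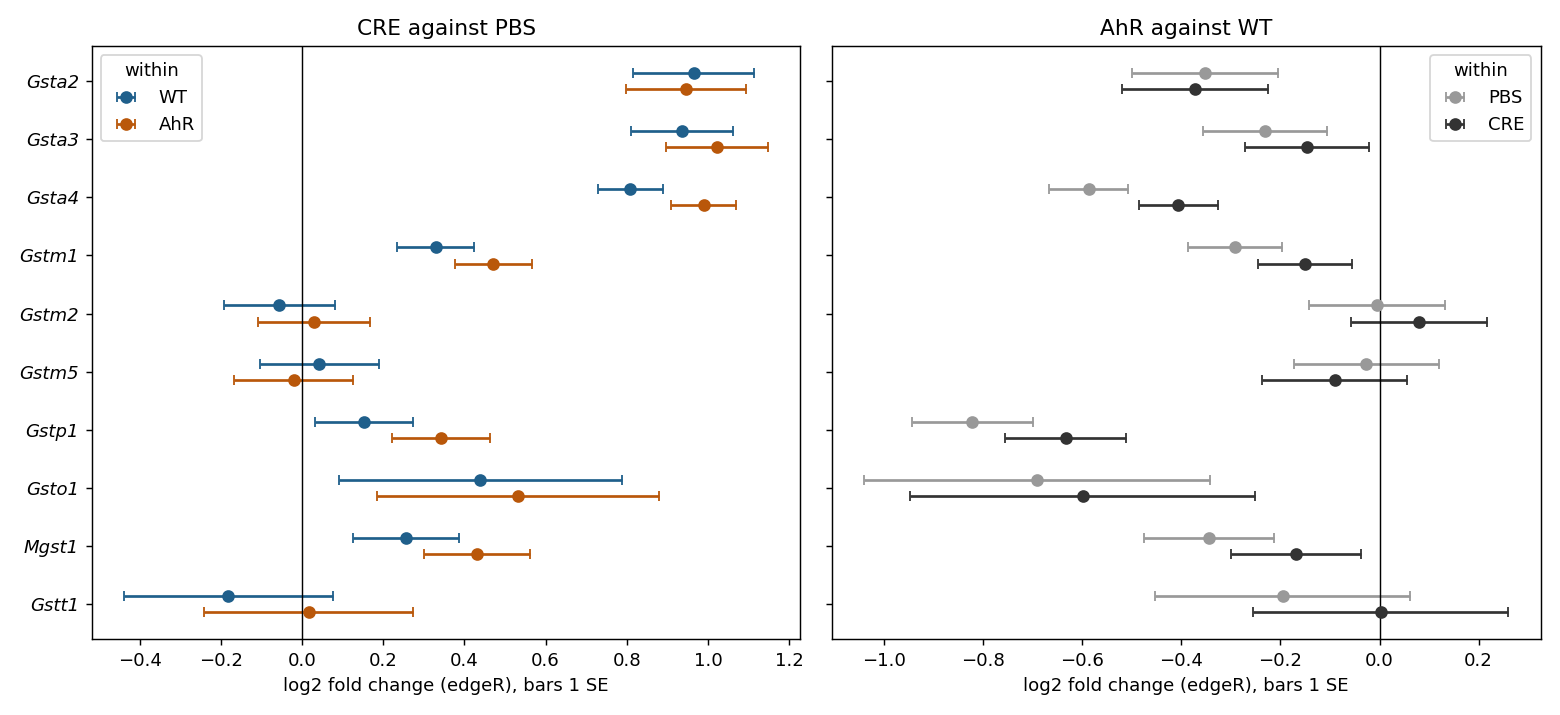
Log2 fold change of each GST member (x axis, points with 1 SE from edgeR), CRE against PBS in each genotype on the left and AhR (Sftpc-Cre;AhR f/f) against WT (AhR f/f) under each treatment on the right. Gsta2, Gsta3 and Gsta4 lie between 0.81 and 1.02 on the left, and Gstp1 lies at -0.82 and -0.63 on the right.

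Whether the answer to CRE differed between the genotypes was asked with the interaction of treatment and genotype. For the alpha class genes the difference between the 2 log2 fold changes (AhR KO minus WT) had an interval that included 0, at -0.02 for *Gsta2* (95% interval -0.48 to 0.44), 0.08 for *Gsta3* (-0.31 to 0.48) and 0.18 for *Gsta4* (-0.07 to 0.43). For *Gstp1* it was 0.19 (-0.19 to 0.57), for *Mgst1* 0.18 (-0.23 to 0.59), for *Gstm1* 0.14 (-0.16 to 0.44) for *Gsto1* 0.09 (-0.99 to 1.18) and for *Gstt1* 0.20 (-0.61 to 1.00). *Gstm2* and *Gstm5* had 0.09 (-0.34 to 0.51) and -0.06 (-0.52 to 0.39). These intervals do not show that the genotypes answered alike. In edgeR 0% of all genes and 0 members passed for the interaction, and 0 of 10 members and 763 of 20612 genes had an unadjusted p below 0.05. Limma-trend also called 0 members, and DESeq2 called 18 genes and 0 members.

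The genotypes were compared under each treatment to ask which GST genes differ between them. Only AhR KO cells carried Cre. The loss of AhR therefore cannot be told apart here from Cre or from other differences between the mouse lines. *Gstp1*, *Gsta4* and *Gsta2* were lower in AhR KO cells without overlap of the libraries under both treatments, *Gstp1* by the most and *Gsta2* by the least. *Gstp1* was at 433, 494 and 395 CPM in WT cells with PBS against 234, 264 and 250 in AhR KO cells. With CRE it was at 440, 559 and 472 against 289, 364 and 295. All 6 AhR KO libraries lay below all 6 WT libraries, and the log2 fold changes were -0.82 ± 0.12 with PBS and -0.63 ± 0.12 with CRE. *Gsta4*, whose values are given above, had log2 fold changes of -0.59 ± 0.08 with PBS and -0.41 ± 0.08 with CRE, with no overlap under either treatment. *Gsta2* had -0.35 ± 0.15 and -0.37 ± 0.15, also with no overlap, although its lowest WT library with PBS (42.3 CPM) and the highest of the other genotype (41.7 CPM) were close. *Gsta3* differed by -0.23 ± 0.12 and -0.15 ± 0.12 with overlap under both treatments. *Gstm1* and *Mgst1* lay lower with PBS without overlap (-0.29 ± 0.10 and -0.35 ± 0.13) and overlapped with CRE (-0.15 ± 0.10 and -0.17 ± 0.13). *Gsto1* was -0.69 ± 0.35 with PBS, where 261 CPM in the lowest WT library stood beside 259 in the highest of the other genotype, and -0.60 ± 0.35 with CRE. *Gstm2* and *Gstm5* differed by no more than 0.09 in size under either treatment, and *Gstt1* by -0.20 ± 0.26 with PBS and 0.003 ± 0.26 with CRE.

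In edgeR 2 of 10 members, *Gsta4* and *Gstp1*, passed with PBS, beside 0.15% of all genes. With CRE 0 members passed, beside 0.17% of all genes. With CRE 3 members had an unadjusted p below 0.05, beside 1227 of 20612 genes. Limma-trend with adjusted p called 0 members there, beside 0.184% of all genes. DESeq2 called 2 (*Gsta4* and *Gstp1*), beside 0.689% of the genes it tested. By the study's rule 2 members passed with PBS and 1 (*Gstp1*) with CRE, beside 4.1% and 3.42% of all genes. Libraries did not overlap for 6 members with PBS and 3 with CRE, all lower in AhR KO cells, beside 14% and 11% of all genes. The 2 calls with PBS were sensitive to single libraries. Without WT library 1 or 2, or AhR KO library 1 or 3, the count was 0, and without WT library 3 or AhR KO library 2 it was 1 (*Gsta4*). It was also 0 when only the 6 PBS libraries were fitted. Averaged over both treatments, *Gstp1* (-0.73 ± 0.09) and *Gsta4* (-0.50 ± 0.06) passed, beside 0.631% of all genes, and both passed without any 1 of the 12 libraries. This average counts same-numbered PBS and CRE libraries of a genotype as separate, although they deviated together, so its p-values may be too small. A fit left without 1 library still holds that library's partner. Libraries of the genotypes did not overlap for 1 member, *Gstp1*, beside 1.19% of all genes. The median log2 fold change over the members was -0.24, beside -0.006 over all genes tested. Nothing is read from these counts of members, since their choice drew on the same comparisons. Of 12 AT2 markers 10 were lower in AhR KO cells on average (median log2 fold change -0.14, 0 called by edgeR and 0 with an unadjusted p below 0.05). Of 10 ciliated cell markers 10 were higher (median 0.51, 0 called and 7 with an unadjusted p below 0.05), with sums of 330.7 to 426.8 against 250.8 to 331.4 CPM with PBS and 255.9 to 413.5 against 205.3 to 305.9 with CRE. Macrophage markers were lower in 8 of 10 (median -0.32, 0 called, 1 with an unadjusted p below 0.05) and AT1 markers higher in 8 of 10 (median 0.13, 0 called and 2). Of 10 fibroblast markers *Postn* fell by 1.29 (SE 0.24, adjusted p = 0.04102), a call lost for 10 of the 12 libraries left out singly. Their part in the GST differences was not tested.

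Of the 19 other GST genes 18 passed the low-count filter, all but *Gstt4*. *Gsta1*, the alpha class neighbour of *Gsta2*, was at 289.5, 404 and 289 CPM with PBS and 554, 761 and 673 with CRE in WT cells. In AhR KO cells it was at 256, 194 and 269 with PBS and 417, 518 and 576 with CRE. The CRE libraries stood above every PBS library. *Gsta1* rose with CRE on average over the genotypes by 1.05 ± 0.13 on the log2 scale (edgeR, adjusted p = 0.003191), *Gm3776* by 0.96 ± 0.13 (adjusted p = 0.004629) and *Gm10639* by 0.93 ± 0.12 (adjusted p = 0.004475). All 3 passed without any 1 of the 12 libraries. These genes share 92.9%, 95.6% and 62.2% of their 31-base stretches with other genes, so they are not counted independently of each other or of *Gsta2*. Within genotypes *Gm10639* passed in AhR KO cells (log2 fold change 1.14 ± 0.17, adjusted p = 0.02561) and 0 of the 18 passed in WT cells, where 5 had an unadjusted p below 0.05. Over all genes 1929 of 20612 had such a p in WT cells. With pairing within genotype, *Gsta1* and *Gm3776* passed in WT cells and *Gsta1*, *Gm3776* and *Gm10639* in AhR KO cells. The call of *Gm10639* was lost without any 1 of the 3 PBS libraries or CRE libraries 2 or 3, whereas without CRE library 1 *Gsta1* passed as well. Limma-trend called 0 and 3 genes in the 2 genotypes, and DESeq2 called 3 and 4.

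Between genotypes *Gstp2*, the neighbour of *Gstp1*, fell by 0.89 on the log2 scale in AhR KO cells on average over the treatments (SE 0.16, adjusted p = 0.04356). Its libraries were at 37.9, 50.4 and 40.2 CPM with PBS and 47.0, 55.8 and 47.9 with CRE in WT cells. The AhR KO libraries had 24.1, 31.3 and 15.6 with PBS and 22.8, 23.9 and 33.2 with CRE, below all of the former. *Gstp2* shares 54.8% of its 31-base stretches with *Gstp1*. Its adjusted p on average takes same-numbered PBS and CRE libraries as separate and may be too small. The call was lost without WT PBS library 1, 2 or 3, WT CRE library 2 or 3, AhR KO PBS library 1 or AhR KO CRE library 1 or 2, and without WT CRE library 1 *Gm10639* passed in its place. Under single treatments 0 of 18 genes passed in edgeR, with 5 at an unadjusted p below 0.05 with PBS and 2 with CRE. Over all genes 1725 and 1227 of 20612 had such a p. Limma-trend called 0 and 0 of the 18, and DESeq2 called 2 and 1.

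The other genes did not pass in any comparison by edgeR without pairing. *Mgst3* was the most abundant of them at 87.7 to 139 CPM, with a log2 fold change of -0.11 ± 0.09 with CRE on average. *Gstm3* had 0.82 ± 0.19 (adjusted p = 0.08785) at 0.74 to 2.03 CPM, and passed with pairing within genotype (edgeR, log2 fold change 0.84, adjusted p = 0.02434) and by DESeq2 (adjusted p = 0.004567). *Gsto2*, next to *Gsto1*, had -0.27 ± 0.12 with CRE. *Gstt2* had -0.38 ± 0.16, *Gstp3* -0.28 ± 0.15, *Gstk1* -0.16 ± 0.13, *Gstt3* -0.07 ± 0.12, *Gstcd* 0.13 ± 0.08 and *Gstz1* 0.21 ± 0.20. *Gstm4*, *Mgst2*, *Hpgds*, *Gstm6* and *Gstm7* were at or below 10.6 CPM in every library and had log2 fold changes of -0.02 to 0.42, with SE of 0.17 to 0.46. For the interaction 0 of the 18 genes passed in edgeR, DESeq2 and limma-trend, and 0 had an unadjusted p below 0.05.

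Some of the genes that supply glutathione rose with CRE. Of 13 genes tested in the glutathione synthesis list, 4 rose with CRE in WT cells, 3 in AhR KO cells and 5 on average, and 0 fell (edgeR). The list, called synthesis genes below, is not of synthesis alone. It also holds *Gsr*, which reduces oxidized glutathione, and *Ggct*, *Ggt1*, *Chac1* and *Chac2*, which act in glutathione breakdown. *Gsr* is among the genes called in each of these comparisons. Over all genes tested 0.233%, 0.262% and 1.1% passed in these 3 comparisons, and 3.63%, 2.13% and 6.59% with pairing within genotype. DESeq2 called 2.06%, 1.29% and 3.85% of the genes it tested. An unadjusted p below 0.05 in edgeR was reached by 1929, 1336 and 2287 of 20612 genes. These shares also belong beside the counts of the lists in the next paragraph. On average 9 of the 13 were higher and 4 lower. *Gclc*, the catalytic subunit of glutamate-cysteine ligase and rate limiting for glutathione, was at 707, 776 and 735 CPM with PBS and 1531, 1948 and 1745 with CRE in WT cells. The KO values were 607, 558 and 725 with PBS and 1198, 1256 and 1553 with CRE. All CRE libraries were above all PBS libraries, with log2 fold changes of 1.24 ± 0.13 (adjusted p = 0.003819) and 1.08 ± 0.13 (adjusted p = 0.008139). *Gclm*, the modifier subunit, rose by 0.80 ± 0.13 (adjusted p = 0.03525) and 1.10 ± 0.13 (adjusted p = 0.006936). *Gsr*, glutathione reductase, rose by 0.41 ± 0.06 (adjusted p = 0.01868) and 0.44 ± 0.06 (adjusted p = 0.009156). *Slc7a11*, the cystine importer, rose by 1.48 ± 0.23 in WT cells (adjusted p = 0.02993) and had 1.19 ± 0.23 in AhR KO cells (adjusted p = 0.07968). *Gss*, glutathione synthetase, rose by 0.56 ± 0.08 on average (adjusted p = 0.008907). The count on average stayed at 5 without any 1 of the 12 libraries, while leaving out 1 library gave 1 to 2 in WT cells and 2 to 4 in AhR KO cells. In WT cells *Gclc* passed without any 1 library, *Gsr* and *Slc7a11* were lost without any of the 6 and *Gclm* without any but PBS library 2. Among AhR KO libraries *Gclc* and *Gclm* passed without any 1 library, *Gsr* was lost without PBS library 2, and all 3 were lost when only the 6 libraries compared were fitted. With pairing within genotype 6, 4 and 8 of the 13 passed. For the interaction 0 of the 13 passed in edgeR, DESeq2 and limma-trend, and 0 had an unadjusted p below 0.05.

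Of 14 genes tested for export and processing of conjugates 1 rose in WT cells, 0 in AhR KO cells and 2 on average (edgeR). Among the 14 genes 3 had an unadjusted p below 0.05 in AhR KO cells, and there DESeq2, limma-trend and the other settings gave 0 to 1, or 2 with pairing within genotype. In WT cells pairing gave 3, and on average 4. *Abcc3*, an exporter of glutathione and glucuronide conjugates, rose by 0.82 ± 0.12 in WT cells (adjusted p = 0.02447) and by 0.75 ± 0.08 on average (adjusted p = 0.001619), where *Abcc4* rose by 0.62 ± 0.10 (adjusted p = 0.01696). *Abcc3* passed on average without any 1 library and was lost in WT cells without any but CRE library 1. *Abcc4* was lost without WT PBS library 3, AhR KO PBS library 2 or AhR KO CRE library 3. Of 15 genes that use glutathione in redox reactions 1 passed on average, *Prdx6* (0.46 ± 0.06, adjusted p = 0.006885), or 4 with pairing within genotype, and within genotypes 0 passed in edgeR with 6 and 3 at an unadjusted p below 0.05, while DESeq2, limma-trend and the other unpaired or additive settings gave 0 to 2 and 0 to 1, and pairing within genotype 5 and 1. With CRE 10 of these redox genes were lower and 5 higher in WT cells, against 4 lower and 11 higher in AhR KO cells. For the interaction 0 of them passed in edgeR. Their median log2 fold change on average was -0.02. Of 18 NRF2 pathway genes 8 rose and 0 fell on average, with a median of 0.44, and 0 and 1 passed within the genotypes, where 10 and 13 had an unadjusted p below 0.05, the other settings gave 0 to 6 and 0 to 7, and pairing within genotype gave 11 and 10. The largest of these were *Cbr3* (0.72 ± 0.13, adjusted p = 0.02469), *Nqo1* (0.62 ± 0.09, adjusted p = 0.008802), *Pgd* (0.60 ± 0.07, adjusted p = 0.002632) and *Ugdh* (0.56 ± 0.07, adjusted p = 0.004611). *Nfe2l2*, which encodes NRF2 and was singled out after its values were seen, rose by 0.38 ± 0.07 on average (adjusted p = 0.03597). *Nqo1*, *Pgd* and *Ugdh* passed without any 1 of the 12 libraries. *Cbr3* was lost without WT PBS library 1, 2 or 3, WT CRE library 1 or 3, or AhR KO CRE library 2 or 3, and *Nfe2l2* without any library but WT CRE library 1 or AhR KO CRE library 1. Leaving out 1 library gave 5 to 8 calls among the NRF2 genes on average, and pairing within genotype 13. Of 9 AhR targets 1, *Nqo1*, rose with CRE on average, while the other settings gave 1 to 4, leaving out 1 library 1 to 2 and pairing within genotype 3. Within WT and AhR KO cells 0 passed, or 3 and 2 with that pairing.

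**Figure D4:**
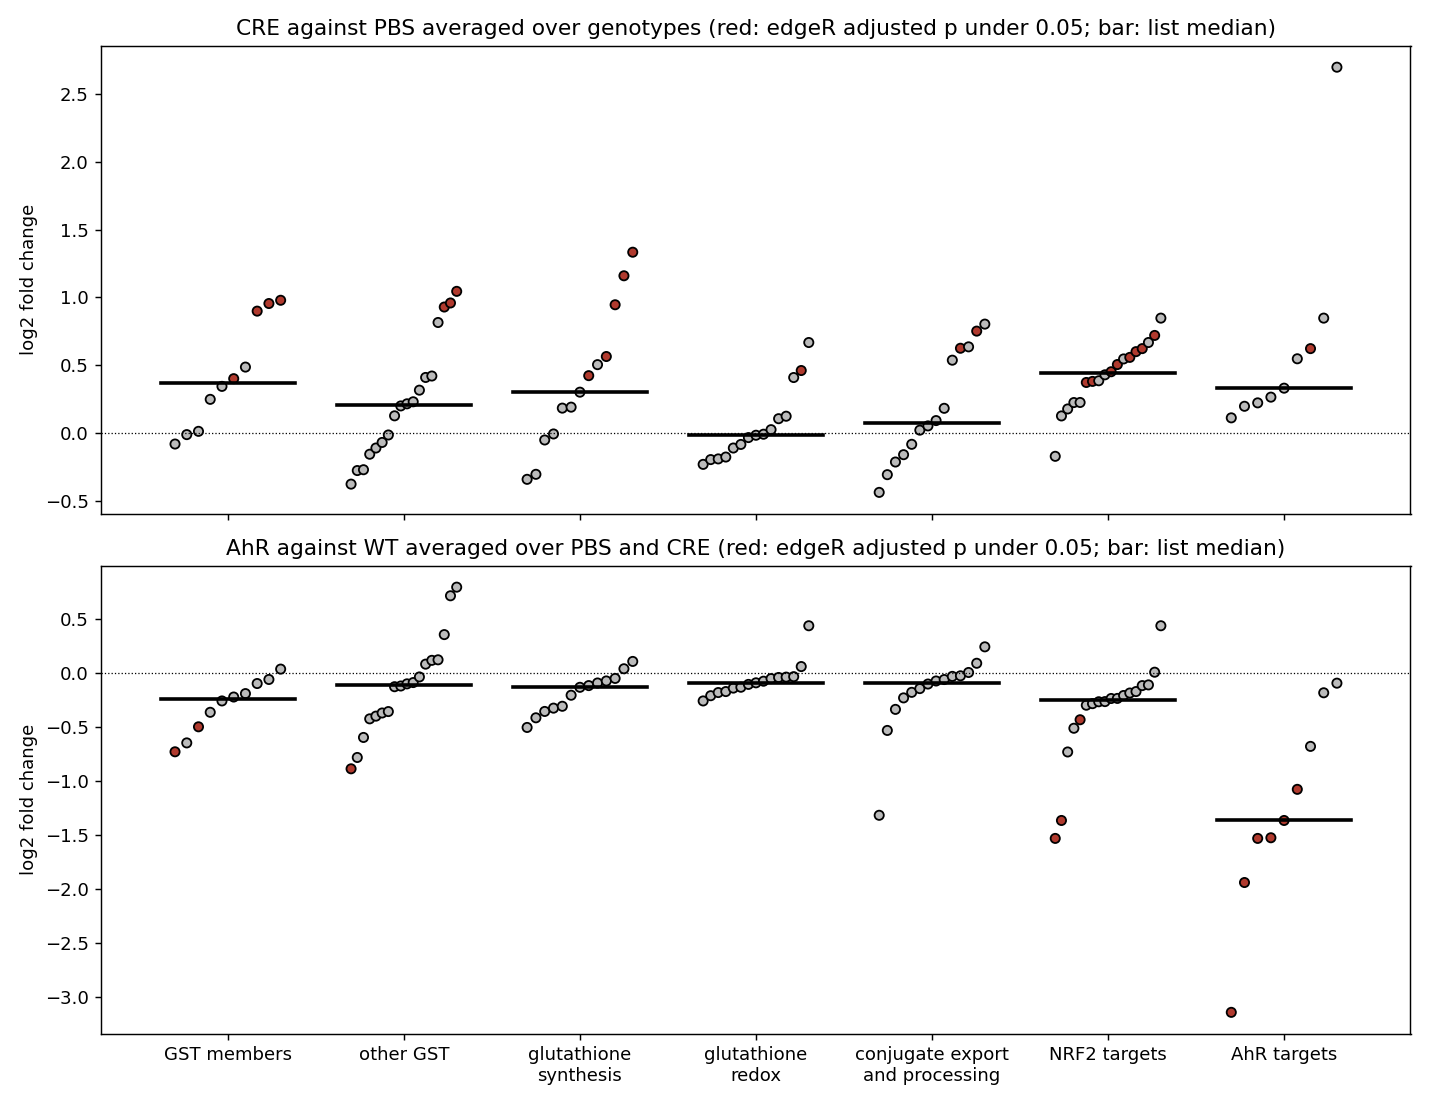
Log2 fold change (y axis) of each tested gene in 7 lists (x axis), CRE against PBS averaged over genotypes above and AhR (Sftpc-Cre;AhR f/f) against WT (AhR f/f) averaged over treatments below. Red points passed an adjusted p of 0.05 in edgeR and bars are list medians. With CRE the medians are 0.37 for the GST members and 0.44 for the NRF2 targets, and between genotypes -1.36 for the AhR targets.

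Between genotypes the glutathione lists held 0 called genes under PBS, under CRE and on average in edgeR. Of the synthesis genes 3 had an unadjusted p below 0.05 with PBS, 3 with CRE and 6 on average, of the redox genes 4, 0 and 1, and of the export genes 2, 1 and 2. Over all genes 1725, 1227 and 2046 of 20612 had such a p, and 0.15%, 0.17% and 0.631% passed. DESeq2, limma-trend and the other settings gave 0 in all 3 lists under single treatments, and on average at most 2 synthesis, 0 redox and 1 export genes. On average 11 of 13 synthesis, 13 of 15 redox and 11 of 14 export genes lay lower in AhR KO cells, beside 10570 of 20612 genes. Of the 18 NRF2 pathway genes 16 lay lower, at a median of -0.25 beside -0.006 over all genes. On average 3 were called lower (*Nqo1*, *Aldh3a1* and *Nfe2l2*) and 12 had an unadjusted p below 0.05. Of these called genes *Nqo1* and *Aldh3a1* are also on the list of AhR targets. With PBS 17 lay lower (1 called, 11 at such a p) and with CRE 16 (1 called, 8 at such a p). Other settings gave 3 to 6 calls on average, and leaving out 1 library 2 to 4. Of the 9 AhR targets tested 6 fell on average and 3 under each treatment, with *Cyp1b1* falling by 3.10 with PBS (SE 0.27, adjusted p = 0.0008786) and by 3.17 with CRE (SE 0.27, adjusted p = 0.0007137) on the log2 scale. The other settings gave 6 to 7 on average, 1 to 5 with PBS and 3 to 7 with CRE, and leaving out 1 library 4 to 6, 2 to 3 and 2 to 3. *Nqo1*, which is both an AhR and an NRF2 target and is on both lists, fell by 1.33 (SE 0.13, adjusted p = 0.001633) and by 1.40 (SE 0.13, adjusted p = 0.001196). It was at 122, 103 and 97.9 CPM with PBS and 173, 167 and 170 with CRE in WT cells. In the KO libraries it was at 39.4, 50.5 and 38.9 with PBS and 60.9, 75 and 57.4 with CRE, so that CRE libraries lay higher in each genotype and the genotypes did not overlap. *Tiparp* fell by 0.98 (SE 0.15, adjusted p = 0.04144) and by 1.17 (SE 0.15, adjusted p = 0.01168). *Nfe2l2* fell by 0.43 on average (SE 0.07, adjusted p = 0.02717), and *Gclc* was at -0.31 ± 0.09 (adjusted p = 0.2487). *Cyp1b1* and *Nqo1* passed without any 1 library, as did *Aldh3a1* on average. *Tiparp* was lost with PBS without any but AhR KO library 3, and with CRE without WT library 2 or AhR KO library 1 or 2. *Nfe2l2* was lost without any but WT PBS library 1 or WT CRE library 1. The p-values on average take same-numbered PBS and CRE libraries as separate, as above, and may be too small.

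Markers of other cell types moved with CRE beside the GST genes. Of 10 alveolar type I (AT1) markers all 10 were lower on average over genotypes (median log2 fold change -0.42) and 3 fell (edgeR), *Rtkn2* by 1.28, *Ager* by 0.83 and *Clic5* by 0.45 on the log2 scale. Of the 12 libraries, leaving out 1 lost the call of *Rtkn2* for 9, of *Ager* for 9 and of *Clic5* for 8, among them PBS library 2 or 3 of either genotype for all 3 genes. Their summed CPM was 2786 to 3597 with PBS and 1974 to 2531 with CRE in WT cells, and 3043 to 4078 and 2319 to 2926 in AhR KO cells. Of 12 AT2 markers 1 fell, *Etv5* (lost for 5 of the 12), and of 9 club cell markers tested 1 rose, *Aldh1a7* (lost for 10 of the 12). Of 10 macrophage markers 1 rose, *Plet1*, which epithelial cells also express, while 6 were lower (median log2 fold change -0.39) with 0 of these called and 3 at an unadjusted p below 0.05. Those 3 were scarce: *Siglecf* averaged 1.30 CPM with PBS and 0.018 with CRE in WT cells, *Ear2* 3.01 and 0.87, and *C1qa* 0.31 and 0. The summed CPM of that list was 151.8 to 294.6 with PBS and 348.3 to 499.3 with CRE, and *Plet1* alone averaged 136 and 393 CPM in WT cells and 110.3 and 289 in AhR KO cells. *Marco*, a defining macrophage marker, averaged 2.66 to 4.92 CPM by group. Of the ciliated, leukocyte, fibroblast, mesothelium and endothelium markers 0 passed with CRE on average in edgeR, with 1, 0, 0, 1 and 1 at an unadjusted p below 0.05. The part of these changes in the GST differences was not tested.

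Within the groups the members varied together only in part. After the group means were removed, log2 CPM of *Gsta3* and *Gstp1* had Pearson's r = 0.90 over the 12 libraries, *Mgst1* and *Gstt1* 0.90, *Gsta4* and *Gstp1* 0.86, *Gsta3* and *Gsta4* 0.85 and *Gsta2* and *Gstm1* 0.725. *Gsta2* had low values with the other alpha genes, -0.07 against *Gsta3* and -0.34 against *Gsta4*. These values are descriptions, since the 2 genes of each pair come from the same libraries with the same depth and scaling. Same-numbered CRE and PBS libraries also deviated together, so the 12 libraries are not 12 separate observations. The genes most like each member in this measure, among 9898 genes with a mean of at least 10 CPM, were *Dap*, *Lmna* and *Tti1* for *Gsta4* (0.95, 0.95 and 0.93), *Nelfcd*, *Gosr1* and *Gne* for *Gsta3* (0.93, 0.93 and 0.92) and *Syvn1*, *Atg9b* and *Gpr137b* for *Gsta2* (0.93, 0.92 and 0.90). For *Gstp1* they were *Nelfcd*, *Vapb* and *Cln3* (0.95, 0.94 and 0.93), and for *Mgst1* *St6galnac2*, *Rplp0* and *Pon2* (0.97, 0.97 and 0.97). For *Gstm1* they were *Zfp598*, *Ddx6* and *Zfyve27* (0.93, 0.92 and 0.91), for *Gstm2* *Dalrd3*, *Ttc39a* and *Gltp* (0.96, 0.95 and 0.95) and for *Gstm5* *Vti1b*, *Alg5* and *Phb* (0.96, 0.94 and 0.93). *Gsto1* had *Tmem87b*, *Ehbp1* and *Banf1* (0.89, 0.87 and 0.86), the lowest values of the 10 members, and *Gstt1* had *Tex15*, *Rps12* and *Tmem159* (0.97, 0.95 and 0.94). These genes were picked as the highest of 9898, so high values follow from the choice. With group means kept, r for the same pairs ran from -0.18 (*Gsta4* and *Lmna*) to 0.96 (*Gstm2* and *Dalrd3*). *Mgst1* and *St6galnac2* then had -0.008.

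**Figure D5:**
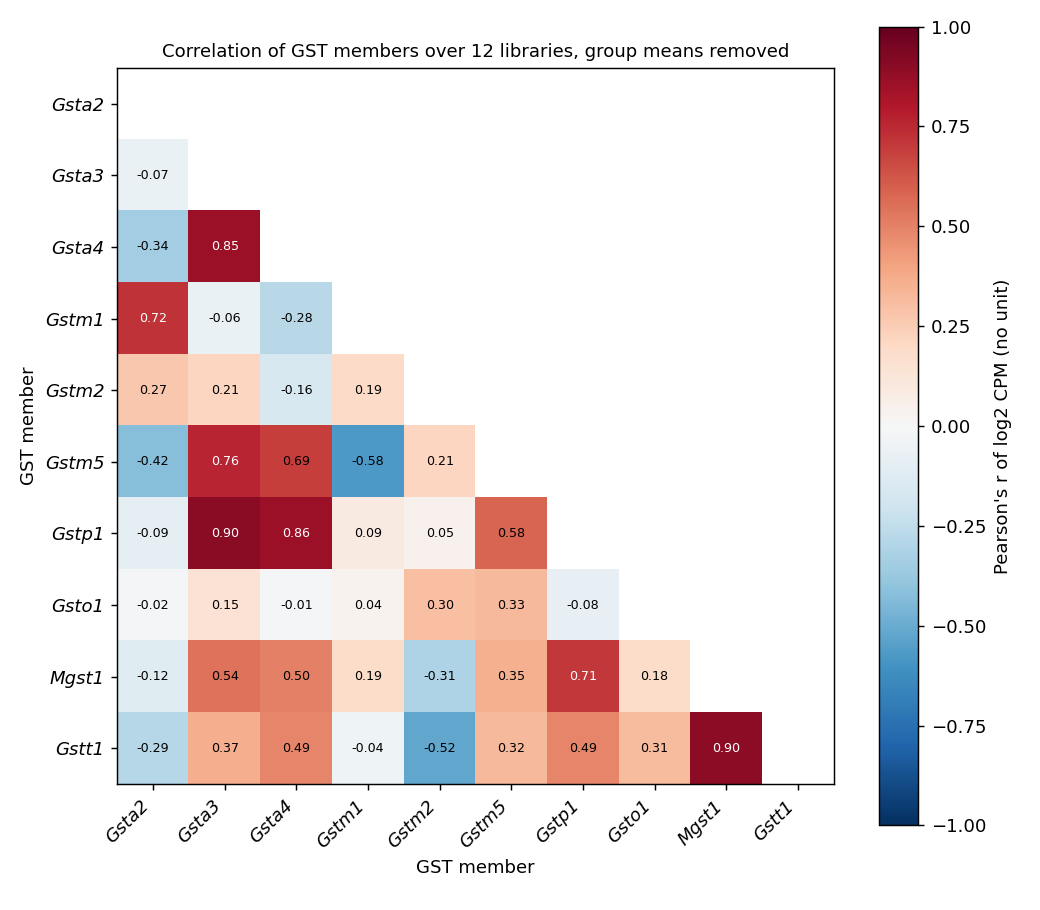
Pearson's r (color, no unit) between the log2 CPM of GST members over the 12 libraries after the mean of each group was removed. Gsta3, Gsta4 and Gstp1 form a set with r between 0.85 and 0.90, Mgst1 and Gstt1 reach 0.90, and Gsta2 has -0.07 and -0.34 with Gsta3 and Gsta4.

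Levels of some members varied with the sums of cell type markers within the groups. *Gstm2* was highest in replicate 1 of both AhR KO groups, at 43.7 CPM with PBS and 45.0 with CRE, and *Gstt1* was lowest in the same libraries, at 6.56 and 7.78 CPM. These 2 libraries also had the lowest summed AT2 markers of the 12 (4948 and 5125 CPM). Their sums of ciliated cell markers (426.8 and 413.5 CPM) and of club cell markers (8170 and 6804 CPM) were the highest in their groups. Over the 12 libraries with group means removed, *Gstm2* had r = -0.79 with the AT2 sum, 0.86 with the ciliated sum and 0.74 with the club sum. In the same measure *Gstt1* had 0.74 with the AT2 sum. *Mgst1* had 0.80 with the AT1 sum, -0.84 with the endothelium sum and -0.74 with the leukocyte sum. *Gstm1* and *Gsta2* had -0.89 and -0.84 with the fibroblast sum. Replicate 1 of all 4 groups stood apart in the leukocyte sum, at 451.8 to 536.3 CPM against 99.9 to 207.7 in the other 8 libraries. The sums share libraries and depth with the members, same-numbered CRE and PBS libraries deviated together, and no cause was tested.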

How the data were processed

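RNA was sequenced from cultured AT2 cells of 2 genotypes with PBS or CRE, 3 libraries in each of 4 groups. Per the labels and the study's methods, the authors made stranded mRNA libraries and aligned reads to mm10 (GRCm38). The submitters' processing notes name STAR 2.7.2b, Salmon and Partek. The authors deposited counts per gene for 55450 genes, not normalized, and FPKM, scaled for length and depth, which stands at 0.0001 where the count is 0. The study's methods name the RefSeq database for annotation, while the genes in the deposited table carry Ensembl identifiers, and the version and the strand setting of the counting are not given in the sources used here. Total counts were 68878065 to 80935797 per library.

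Counts were filtered with filterByExpr (minimum count 10), scaled by TMM (factors 0.969 to 1.03) and tested with edgeR 4.0.16 (quasi-likelihood, R 4.3.3) in 1 fit of 4 group means over 12 libraries, with Benjamini-Hochberg adjustment at 0.05. Limma 3.58.1 and DESeq2 1.42.0 were alternatives, and the test script was tested on simulated data. Correlations used log2 CPM and intervals are 95%. The members and lists were chosen with earlier results of these data known. Named genes were the members, the other GST genes, and in each list the called genes with the largest differences, at most 4. FPKM was used only for levels between genes. Transcripts from GENCODE M21 gave positions and shared 31-base stretches, and RefSeq gave promoters, with 9 of the 10 members matched.

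Same-numbered CRE and PBS libraries deviated together (correlations of 0.675, 0.37 and 0.506 in WT and 0.535, 0.54 and 0.361 in AhR KO cells over 9898 genes), so counts with pairing within genotype are given beside those comparisons where they differ by over 1.5 times or change a call. For the genotype comparison averaged over treatments, no fit took this pairing within genotype into account. The sources do not say that libraries are from separate cultures or mice, so p-values measure the spread between these libraries.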

Additional observations from a re-analysis of the deposited data

How the results depend on the processing

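In the comparisons within a genotype or a treatment, the log2 fold change of each member moved by less than the spread of the libraries under every setting computed for it, and those of members called kept their sign. For CRE against PBS in WT cells the count of members called (3) was 5 with the replicate block within genotype, 2 when only the libraries compared were fitted and 1 to 2 without 1 library. The count of other GST genes called (0) was 1 with library size alone, 1 with the replicate block, 2 with the block within genotype and 3 with DESeq2. In AhR KO cells the members' count (3) was 6 with the block within genotype, 1 when only the libraries compared were fitted, and 2 to 3 without 1 library. The count of other genes (1) was 3 with library size alone, 3 with limma-trend, 2 with the replicate block, 3 with the block within genotype, 4 with DESeq2, 0 when only the libraries compared were fitted, and 0 to 2 without 1 library. Between genotypes with PBS the members' count (2) was 0 when only the libraries compared were fitted and 0 to 1 without 1 library, and the other genes' count (0) was 2 with DESeq2. With CRE the members' count (0) was 2 with the replicate block and 2 with DESeq2, and the other genes' count (0) was 1 with DESeq2. Averaged over treatments the other genes' count (1) was 0 with no low-count filter, 2 with DESeq2 and 0 to 1 without 1 library. Fits of only the libraries compared rest on fewer samples, and otherwise the cause was not tested. Between genotypes the correlations of same-numbered libraries were 0.288, 0.0551 and 0.0889 with PBS and 0.235, -0.156 and -0.0155 with CRE, highest for replicate 1. Replicate 1 of each group also stood apart in the leukocyte sum. Whether the replicate numbers mark something shared between the genotypes is not said in the labels and was not tested. The replicate block gave 2 members with PBS and 3 on average. The block within genotype for the members' average and interaction and for the other GST genes, and all settings for the latter in the interaction and averages, were chosen after seeing the data. With 3 libraries a group, differences of members near 10 CPM, such as *Gstt1*, are known only to within an SE of 0.26 on the log2 scale.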
